A study of Mus musculus with 5 samples.

Results

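The overnight change in the uterine luminal layer that surrounds the attached embryo was followed by comparing 2 of the 5 libraries of the series, that of day 4 evening and that of day 5 taken around the embryo. Of 23420 genes in the table, 12918 averaged at least 1 count per 1000000 assigned counts (CPM) over the 5 libraries and were kept for the comparison. The series follows wild-type C57BL/6N mice through early pregnancy, with the day of the vaginal plug counted as day 1. Luminal tissue was cut from uterine sections by laser microdissection, on day 3 morning, day 4 morning, day 4 evening and day 5. On day 5 it was taken in the morning, separately at the anti-mesometrial side, around the embryo, and at the mesometrial side, away from it. Nearness to the embryo and side of the uterus therefore cannot be told apart in the day 5 libraries. The labels give no side for the day 4 evening library, and time of day differs between it and those of day 5. Each condition had 1 library, so no spread between animals could be measured and no p-value is given. The study's methods describe pooled RNA of independent samples for the Lif mutant groups, and whether a wild-type library here came from 1 mouse or a pool is not given in the sources used here.

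The luminal epithelium lines the uterine cavity and is the first maternal tissue that the blastocyst touches. In mice it becomes receptive on day 4 of pregnancy under progesterone and a pulse of estrogen, which induces the cytokine Lif. By day 5 the blastocyst has attached at the anti-mesometrial side, its trophectoderm lies against the epithelium, and the stroma beneath begins to decidualize. Epithelial cells around the embryo are later removed, and embryo, epithelium and stroma lie so close at this stage that a dissected strip can hold RNA of each.

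The libraries held 15334674 to 19529491 assigned counts, with 16560409 on day 4 evening and 19136032 around the embryo. The ribosomal RNA precursor Rn45s and Lars2 together took 20.4% of counts on day 4 evening and 16.7% around the embryo. A count of 3, used as the floor for a gene listed at 0, equals 0.19 CPM on day 4 evening and 0.174 CPM around the embryo. Luminal epithelium markers were abundant in every library. Their summed level was 8265 CPM on day 4 evening and 11208 CPM around the embryo. Epcam went from 743 to 1524 CPM, Cdh1 from 614 to 1316 CPM and Krt8 from 902 to 818 CPM, so the labelled tissue was present on both sides of the comparison. Of the 20 markers, 6 were higher past 2-fold around the embryo and 4 lower, with Lpar3 and Krt19 among the lower.

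The library taken around the embryo also held transcripts that the other 4 libraries nearly lacked. The 16 epiblast markers summed to 185 CPM there, against 2.40 CPM on day 4 evening and 1.07 to 2.40 CPM over the other 4 libraries, and all 16 were detected. The 18 trophectoderm markers in the table other than Krt8, a keratin of the uterine epithelium as well, summed to 202 CPM against 12.5 CPM on day 4 evening and 35.6 CPM away from the embryo. Genes of the Y chromosome, which female mice lack, had 97 counts around the embryo, from 5 of 9 genes, and 0 in every other library. The share of RNA that came from embryos was not estimated, so for a gene that embryos also express, the origin of its counts cannot be told apart from these 2 libraries.

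Markers of other uterine cells moved as well. The 10 smooth muscle markers summed to 36.5 CPM on day 4 evening, 49.2 CPM on day 5 on the far side and 471 CPM around the embryo, most of it from desmin (Des), which went from 223 to 6090 counts. Of the 8 kept, 7 were past 2-fold higher, but 2 of the 8 passed the filter only through the library around the embryo. Among the 6 that averaged at least 1 CPM over the 3 libraries outside the comparison, 5 were higher and 0 lower. Decidual response genes summed to 352 and 1222 CPM, endothelium markers to 55.2 and 183 CPM and gland markers to 1.45 and 30.4 CPM on day 4 evening and around the embryo, whereas stroma markers stood at 1017 and 844 CPM. The stroma list was split, with 4 of 20 genes higher past 2-fold and 5 lower. Of the higher genes, Hand2 went from 102 to 2282 counts and Ecm1 from 20 to 2590, with 389 and 124 away. Most of the endothelial gain came from Flt1 and Cdh5, without which the sums were 42.2 and 53.8 CPM, and 3 of 11 kept endothelium markers were lower past 2-fold. Lif alone made 17.7 of the 30.4 CPM of gland markers around the embryo, and the study also places Lif in stroma near the embryo on day 5. Leukocyte markers went from 396 to 145 CPM, with 7 of 12 kept genes past 2-fold lower and 1 higher. The higher gene, the macrophage marker Cd68, went from 158 to 670 counts. Ncr1, a receptor of natural killer cells, had 112 counts on day 4 evening and 86 on the far side on day 5, but 0 around the embryo. In such bulk tissue, fewer cells of a type and less RNA per cell cannot be told apart. The part of these other cells in the results that follow was not tested. Hemoglobin and other blood cell markers stayed at 3.79 CPM or less in all 5 libraries.

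Around the embryo, 2465 of the 12918 genes were more than 2-fold higher than on day 4 evening, or 19.1%, and 2678 were more than 2-fold lower, or 20.7%. Past 4-fold, 1143 genes were higher (8.85%) and 1122 were lower (8.69%). These shares are the background against which the gene groups are read. Of the 12918 genes, 262 would not have reached a mean of 1 CPM without the library around the embryo, so they could hardly be other than higher there. Several gene lists below hold such genes, and those with only 1 are not all marked. Most marked lists also carry counts under the outside filter, a mean of at least 1 CPM over the 3 libraries outside the comparison. Calls rest on log2 CPM, to which a prior count of 2 was added, after scaling by the trimmed mean of M values (TMM). The median log2 difference over all kept genes was -0.02, with quartiles at -0.79 and 0.71. Away from the embryo, against the same day 4 evening library, 13% of genes were higher past 2-fold and 12.7% lower. From day 4 morning to day 4 evening the shares were 7.2% and 6.94%. The SD of the log2 difference over genes was 1.79 for the tissue around the embryo, 1.24 for the tissue away from it and 0.83 for the preceding day.

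Counting error was small beside most of these differences. Of the 2465 higher genes, 2451 had an exact 95% interval of the count ratio wholly above 1, and 1916 had it above 2. Of the 2678 lower genes, 2658 had it below 1 and 1898 below 0.5. These intervals, given in parentheses after each fold, cover counting error only and say nothing of differences between animals or of amplification.

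**Figure D1:**
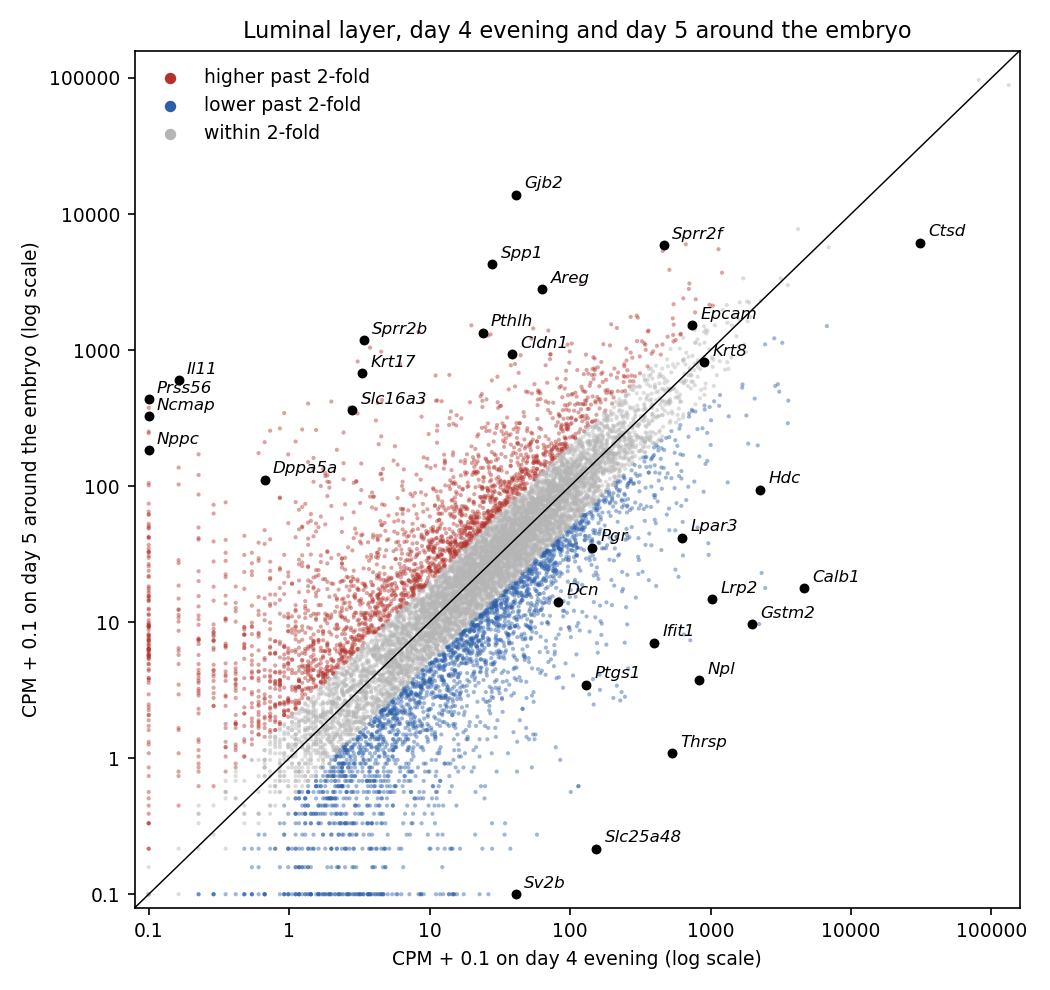
Each point is 1 of the 12918 kept genes, with its CPM on day 4 evening on the horizontal axis and around the embryo on day 5 on the vertical axis, both on log scales with a small constant added. Red points are the 2465 genes higher past 2-fold, blue points the 2678 lower past 2-fold, grey points the rest, and black points are labelled genes, among which Gjb2, Spp1 and Areg lie far above the line of equal values and Calb1, Npl and Thrsp far below it.

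The largest increases were of genes that were absent or nearly absent on day 4 evening. Prss56 (chr1:87183493-87188404, mm10), a serine protease best known from the eye, had 0 counts at the 3 earlier times, 1 away from the embryo and 7489 around it, at least 2293-fold higher than on day 4 evening. Il11 (chr7:4772378-4778141), a cytokine that signals through gp130 and is needed for decidualization, had 3, 8 and 1 counts at the 3 earlier times and 15 on the far side on day 5. It had 10358 around the embryo, a ratio to day 4 evening of 9515 (1707 to 375850). In both cases the library around the embryo stood alone. Ncmap, a myelin-associated membrane protein, went from 0 to 5600 counts (at least 1715-fold) with 166 away from the embryo. Nat8l, which makes N-acetylaspartate, went from 0 to 4332 (at least 1326-fold) with 6 away.

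The remaining genes of the largest 10 were at 0 or 1 counts on day 4 evening too. Nppc encodes C-type natriuretic peptide and went from 0 to 3149 counts, with 0 away from the embryo (at least 964-fold). Chrna1, a subunit of the muscle acetylcholine receptor, went from 0 to 1741 with 23 away. Crct1, of the epidermal differentiation complex, went from 0 to 1811, and 2010109I03Rik and BC053393 from 0 to 6476 and 4217, all 3 with 0 counts away. Pnp2, a purine nucleoside phosphorylase with a close neighbouring copy, went from 1 to 2354 counts and also reached 837 away from the embryo, so this gene alone of the 10 was abundant at both sides on day 5. Reads shared with its copy could have been split in either way.

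In CPM rather than fold, the largest gain outside Lars2 was of Gjb2 (chr14:57098602-57104702), which encodes the gap junction protein connexin 26. It had 192, 21.5 and 41.0 CPM at the 3 earlier times and 1733 CPM away from the embryo. Around the embryo it reached 13898 CPM, 339-fold higher (314 to 366) than on day 4 evening. It took 1.25% of all counts around the embryo, against 0.00392% on day 4 evening. Irg1, a progesterone-responsive gene whose enzyme makes itaconate, went from 456 to 5351 CPM with 815 away, and Cyp26a1, which degrades retinoic acid, went from 666 to 5985 CPM with 5316 away. Cyp26a1 thus reached a like level at both sides, whereas Irg1 and Gjb2 were highest around the embryo. The CPM ranking, and with it Gjb2 and Irg1, was chosen after the values were seen.

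The largest decreases were of genes that were abundant in the receptive epithelium. Calb1 (chr4:15881264-15906709), the calcium buffer calbindin, had 5468, 7978 and 4621 CPM on day 3 morning, day 4 morning and day 4 evening, then 72.8 CPM away from the embryo and 17.8 around it, 260-fold lower than on day 4 evening (232 to 292). Npl, which cleaves sialic acid, had 909, 1732 and 833 CPM at the earlier times, 4.13 away and 3.66 around, 228-fold lower (178 to 296). Thrsp, a regulator of lipid synthesis, went from 529 CPM to 0.987 around the embryo with 11 away, 535-fold lower (334 to 920). These 3 genes were low at both sides of the uterus on day 5.

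Tmem158, a membrane protein, went from 35083 to 165 counts (231-fold, 199 to 271) and the mitochondrial carrier Slc25a48 from 2433 to 2 (1324-fold, 366 to 10941). Gstm2, a glutathione transferase with close relatives that may share its reads, went from 31070 to 165 counts. The monocarboxylate transporter Slc16a12 went from 917 to 3. Sv2b, Dnahc5 and Meig1, known from synaptic vesicles, cilia and sperm, went from 649, 413 and 357 counts to 0, which puts them at least 236-fold, 150-fold and 130-fold lower. Away from the embryo the counts of all 10 genes were also below those of day 4 evening. Ctsd, the lysosomal protease cathepsin D, lost most in CPM among protein-coding genes, from 2.94% of all counts to 0.555%.

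**Figure D2:**
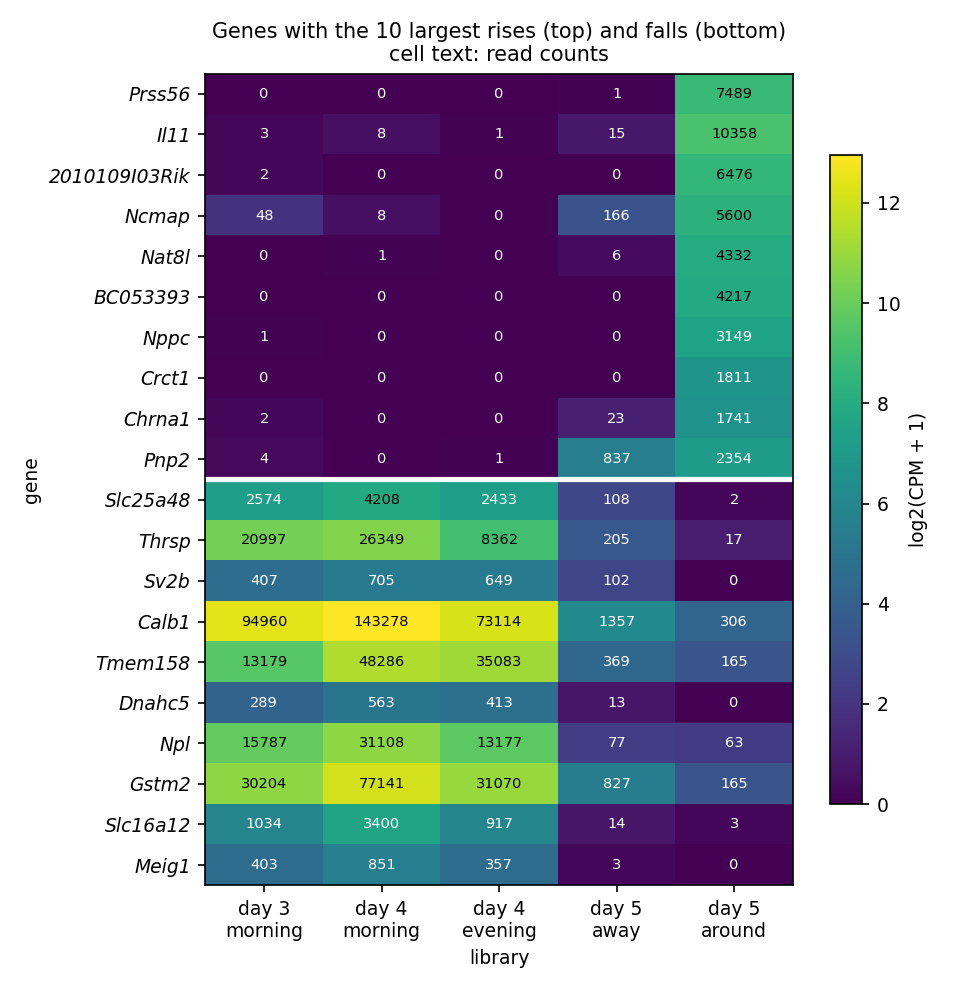
Rows are the 10 genes with the largest increases and the 10 with the largest decreases from day 4 evening to day 5 around the embryo, and columns are the 5 libraries. Colour gives log2(CPM + 1) and the text in each cell the read count, and the upper 10 rows are bright around the embryo, with Pnp2 (837 counts) and Ncmap (166 counts) also visible away from it, while the lower 10 are bright at the 3 earlier times.

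Transcripts of the early embryo made up part of the genes that appeared around it. Dppa5a, a gene of pluripotent cells, had 9 counts on day 4 evening, 0 in the other 3 libraries and 1916 around the embryo (196-fold, 103 to 428). Zfp42 went from 0 to 246 counts (at least 75.3-fold), Pou5f1 from 0 to 68 (at least 20.8-fold) and Nanog from 0 to 10 (at least 3.06-fold), all 3 with 0 counts in every other library. They are transcription factors of the epiblast and inner cell mass. The 6 epiblast markers that were kept were all higher past 2-fold, but they passed the filter only through this library, so the count carries no weight.

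Trophectoderm genes followed. Cdx2, the factor that specifies trophectoderm, had 22 counts around the embryo and 0 elsewhere. Eomes, a partner of Cdx2, went from 40 to 609 counts with 26 away (14-fold, 10.2 to 19.8). Tfap2c and Tead4, active in trophectoderm and also in epithelia, went from 3 to 673 and from 3 to 479 counts, and reached 79 and 179 away from the embryo. Elf5 was already at 77 counts on day 4 evening and stood at 317 around the embryo and 10 away. Cdx2 thus had counts in this library alone, while Tfap2c, Tead4, Eomes and Elf5 had counts in every other library too.

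Primitive endoderm was the least clear of the 3 lineages. Gata4 had 54 counts around the embryo and 0 elsewhere, whereas Sox7 went from 1927 to 322 and Dab2, an endocytic adaptor, from 1212 to 362. Without Sox17, abundant in the epithelium itself, the list summed to 263 CPM on day 4 evening and 215 CPM around the embryo. Of the Y-linked genes, Ddx3y had 67 counts, Eif2s3y 22 and Uty 5, and reads of the first 2 can be shared with their X-linked copies.

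**Figure D3:**
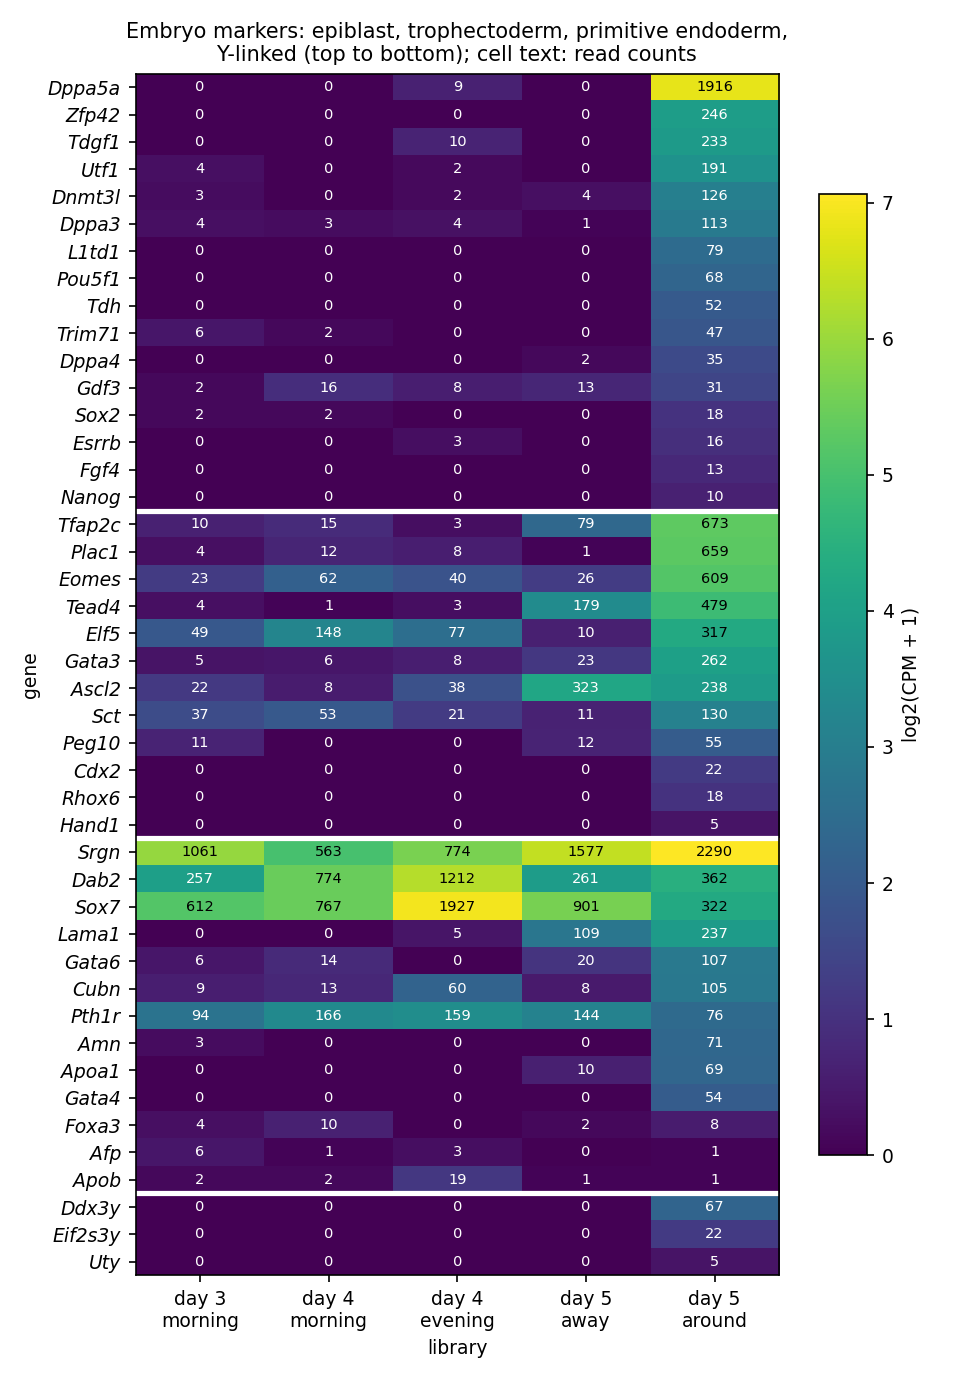
Rows are markers of the epiblast, trophectoderm and primitive endoderm and Y-linked genes, from top to bottom, and columns are the 5 libraries, with colour for log2(CPM + 1) and the read count in each cell. Krt8, Sox17 and genes with 3 counts or fewer in every library are left out, and the epiblast and Y-linked rows are filled almost only in the library taken around the embryo, where Dppa5a reached 1916 counts.

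Lif, which acts on the epithelium through gp130 and the transcription factor Stat3, had 36, 17 and 0 counts at the 3 earlier times. It had 2 away from the embryo and 304 around it, at least 93.1-fold higher than on day 4 evening. The study describes Lif in glands before attachment and, on day 5, in stroma near the embryo. Which cells gave the Lif counts here was not tested. Lif is also a gland marker, and Foxa2, the factor that defines uterine glands, went from 0 to 21 counts around the embryo with 2 away. Without these genes the other 5 gland markers in the table summed to 0.576, 0.724 and 1.45 CPM at the earlier times, 3.91 away and 11.6 around the embryo.

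Of the 25 kept genes of the Lif, gp130 and Stat3 pathway, 12 were higher past 2-fold and 3 lower, with a median log2 difference of 0.93 against -0.02 over all genes. The higher genes included Igfbp3, which binds insulin-like growth factors (119 to 3156 CPM, 26.6-fold, 25.4 to 27.9), and Socs2, a feedback inhibitor of cytokine signaling (1136 to 14766 counts). Among receptors, Lifr went from 181 to 484 CPM and the oncostatin M receptor Osmr from 73.7 to 182 CPM, while their shared partner Il6st (gp130) stayed within 2-fold, at 39.0 and 52.1 CPM. Stat3 went from 273 to 513 CPM, a 1.88-fold difference, and its target Socs3 from 90.1 to 161 CPM, with 23.2 CPM away. Jak2, the kinase, was lower, at 506 and 68.3 CPM. Lif, Lifr and Osmr thus differed more than Il6st and Stat3.

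Several ligands of the EGF family were higher around the embryo. Areg (amphiregulin) had 25.7, 65.8 and 63.5 CPM at the 3 earlier times, 35.5 away from the embryo and 2804 around it, 44.2-fold above day 4 evening (41.5 to 47.1). Ereg (epiregulin) had 47 counts on day 4 evening, 50 away and 14198 around (277-fold, 209 to 378). Hbegf, a ligand long associated with the site of attachment, went from 218 to 5444 counts (22.9-fold, 20.03 to 26.4) with 876 away, and Nrg1 from 1 to 193 with 13 away. The ligand Nrg4 was lower, at 220, 79 and 2 counts on day 4 evening, away and around.

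The receptor Egfr was at 344 counts on day 4 evening and 518 around the embryo, within 2-fold. Over the 13 kept genes, 8 were higher past 2-fold and 1 lower (median 1.40), but 1 was kept only through the library around the embryo. The outside filter passed 12 genes, 7 of them higher and 1 lower (median 1.30). Per length of transcript, Areg was the most abundant of these 3 ligands around the embryo, at 2338 RPKM (CPM divided by transcript length in kilobases), followed by Ereg at 199 and Hbegf at 133 RPKM. On day 4 evening the same levels were 52.9, 0.72 and 5.80 RPKM.

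Genes of steroid signaling split evenly, 9 higher and 9 lower of 22 (median -0.31). The progesterone receptor Pgr went from 143 CPM to 35.1 around the embryo and 26.6 away, and the estrogen receptor Esr1 stayed within 2-fold, at 115 and 78.3 CPM. Ihh, the epithelial signal that progesterone induces and that acts on stroma, was nonetheless higher, from 545 to 2171 CPM with 674 away (3.98-fold, 3.89 to 4.08). Fst (follistatin), which binds activins, went from 64 to 5226 counts with 185 away (75-fold, 58.6 to 97.5). Progesterone-responsive genes thus differed in either direction, with Calb1 and Npl among the 10 largest decreases and Areg and Fst higher. This list was drawn up with results of these samples known, so its split is a description.

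Of 23 kept transcription factors of the receptive epithelium, 13 were higher past 2-fold and 2 lower (median 1.51). However, 2 of the 23 were kept only through the library around the embryo. The outside filter passed 21 genes, 11 of them higher and 2 lower (median 1.48). Klf4, which favours differentiation over growth, went from 21.7 to 231 CPM, with 67.4 away. Foxo1, a factor of the implanting epithelium, went from 156 to 451 CPM, and to 505 away. Msx1, which falls as receptivity ends, went from 345 to 97.1 CPM with 196 away, and Emx2 from 49.7 to 17.5 CPM. Klf5, needed for implantation, stayed at 149 and 155 CPM.

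The enzymes of prostaglandin synthesis differed in opposite directions. Ptgs2 (cyclooxygenase-2), the inducible enzyme known at sites of attachment, had 89.4, 18.7 and 61.4 CPM at the earlier times, 3.59 away from the embryo and 479 around it, 7.80-fold above day 4 evening (7.30 to 8.35). Ptgs1, the constitutive enzyme, went the other way, from 2048 to 58 counts around the embryo with 2195 away (38.4-fold lower, 29.6 to 50.8). Ptges, which makes prostaglandin E2 from their product, went from 38 to 1264 counts with 71 away, and the transporter Slco2a1 from 20 to 635 with 22 away.

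Upstream of these, Pla2g4a, the phospholipase that frees arachidonic acid, was lower around the embryo, at 582 counts against 7067, and also away, at 1317. Lpar3, a receptor for lysophosphatidic acid needed for embryo spacing, went from 628 to 41.6 CPM, with 59.1 away. Over the 17 kept genes 6 were higher and 5 lower (median -0.03), so the group as a whole had no direction.

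Of 36 signals and antagonists of the Wnt, Bmp and activin families, 18 were higher past 2-fold and 7 lower (median 0.92). However, 3 of the 36 passed the filter only through the library around the embryo. Among the 33 that averaged at least 1 CPM over the 3 libraries outside the comparison, 15 were higher and 7 lower, with a median of 0.46. With a mean of at least 5 CPM over all libraries the median was 0.53. Activin subunits were among the higher. Inhbb went from 0 to 1063 counts (at least 325-fold) with 99 away, and Inhba from 2 to 694 with 3 away. Wnt7b went from 25.9 CPM to 1273 around the embryo and 1140 away, while the epithelial ligand Wnt7a went from 133 to 447 CPM with 181 away. Bmp2 and Wnt4, known from the decidualizing stroma, went from 61 to 720 and from 25 to 228 counts, with 140 and 48 away. Lower genes included Porcn, which Wnt ligands need for secretion (387 to 144 counts, with 933 away), and the stem cell receptor Lgr5 (102 to 33.8 CPM).

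Junction genes were higher more often than lower. Of 26 kept tight junction and polarity genes, 8 were past 2-fold higher and 2 lower (median 0.64), and of 20 cadherin, catenin, desmosome and nectin genes, 11 and 1 (median 1.06). Claudins, which set the tightness of the seal, differed in either direction. Cldn1 went from 38.7 to 932 CPM with 38.7 away (24.0-fold, 22.2 to 26.1), Cldn4 from 48.4 to 496 CPM with 142 away, and Cldn10 from 72.2 to 928 CPM with 496 away. Cldn23 and Cldn8 were lower around the embryo, at 401 against 3712 and 51 against 263 counts, and higher away from it, at 7539 and 1266. The desmosome genes Dsc2 (79 to 1044 counts) and Pkp1 (0 to 253) were higher, and Ctnnb1 (beta-catenin) was at 844 and 724 CPM.

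Of 33 integrin and basement membrane genes, 18 were higher past 2-fold and 2 lower (median 1.18). Spp1 (osteopontin), a ligand of integrins that is secreted in the uterus, went from 440 to 73918 counts (154-fold, 141 to 170) with 730 away. The integrins Itga2 and Itgb3 went from 7 to 226 and from 13 to 188 counts, with 36 and 22 away. The basement membrane collagen Col4a1 went from 649 to 2988 counts and Lama1, a laminin chain also made by the embryo, from 5 to 237, whereas Col4a5 and Col18a1 were lower, at 156 against 888 and 270 against 716.

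Among 17 mesenchymal transition genes, 10 were higher and 1 lower (median 1.08), led by Tgfb1 (20 to 442 counts, with 44 away). Vim, the mesenchymal filament, stayed at 74.3 and 58.8 CPM, Cdh2 at 19 and 14 counts, and Cdh1 was higher, as given above.

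Several keratins and cornified envelope genes were higher around the embryo. Krt17, of stratified epithelia, had 269, 3 and 51 counts at the 3 earlier times, 31 away and 11660 around (210-fold above day 4 evening, 160 to 282). Krt16, also of stratified epithelia, went from 0 to 597 with 1 away (at least 183-fold). Krt20, known from gut and bladder lining, went from 1 to 1770 with 2 away. Of the keratins of simple epithelia, Krt8 and Krt19 were not higher, Krt8 at 902 and 818 CPM and Krt19 at 442 and 159 CPM. Krt7 and Krt18, also on the luminal list, are not given here. The keratin list as a whole summed to 2242 CPM on day 4 evening and 3183 CPM around the embryo. Krt5, the basal keratin, had 0 counts around the embryo. Of 13 kept keratins, 9 were higher and 1 lower (median 3.49), but 5 of the 13, Krt16 and Krt20 among them, passed the filter only through the library around the embryo. Among the 8 that averaged at least 1 CPM over the 3 libraries outside the comparison, 4 were higher and 1 lower, with a median of 0.99.

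Small proline-rich proteins, which are cross-linked into the envelope of stratified epithelia and are induced by estrogen in the uterus, had the highest median of the lists that do not mark a cell type, 4.77, with 6 of 7 kept genes higher. Sprr2b had 85, 0 and 52 counts at the 3 earlier times, 3 at the far side of the lumen and 20433 beside the embryo (361-fold, 275 to 483). Sprr2f had 1093, 125 and 464 CPM at the earlier times, 51.1 away and 5909 around (12.7-fold, 12.4 to 13.1). Sprr1a went from 69 to 2104 counts with 12 away. Of the 7 kept genes, 1 was kept only through the library around the embryo. The outside filter passed 6 genes, 5 of them higher and 0 lower (median 6.48). Away from the embryo the median of these 7 genes was -2.56 and 6 of them were lower past 2-fold than on day 4 evening. The Sprr2 genes are near-identical in parts, so how reads were divided among them is uncertain.

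Of 30 microvillus and cortical actin genes, 14 were higher and 4 lower (median 0.97). Eps8, which caps actin filaments in microvilli, went from 32.2 to 389 CPM, and Tpm2, a tropomyosin of contractile cells, from 19 to 224 counts. Tmsb4x, which sequesters actin monomers, went from 6730 to 1500 CPM and Cnn3 (calponin 3) from 3576 to 424 CPM. Ezr (ezrin), which anchors microvilli, was at 548 and 516 CPM. Mucin and glycan genes had no direction as a group (6 higher and 6 lower of 20). Muc1, a mucin held to hinder attachment, went from 109 to 242 CPM with 49.1 away, Muc4 from 107 to 673 counts, and Gcnt1, which builds branched O-glycans, from 410 to 18.3 CPM.

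Among 30 matrix proteases and inhibitors, 14 were higher and 6 lower (median 0.90), but 2 were kept only through the library around the embryo. The outside filter passed 28 genes, 12 of them higher and 6 lower (median 0.89). Mmp11, a stromelysin, went from 61 to 1432 counts with 592 away, and Timp1, an inhibitor of matrix metalloproteases, from 16.4 to 65.4 CPM with 6.81 away. Plat, which activates plasminogen, was lower, at 340 and 55.4 CPM. Ctsl went from 93.7 to 366 CPM and Ctss, a cathepsin of leukocytes, from 52.4 to 9.23 CPM.

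Regulators of cell death were divided, with 9 of 37 higher and 9 lower (median 0.06). Ripk3, the kinase of necroptosis, went from 46 to 1869 counts with 254 away (37.3-fold, 27.9 to 51.2), and Pmaip1 (Noxa), which promotes apoptosis, from 66.9 to 773 CPM with 60.2 away. The protective Bcl2l1 was higher too, at 143 and 655 CPM. The caspase gene Casp4 went from 69.1 to 9.87 CPM and Birc2, an inhibitor of apoptosis, from 90.7 to 12 CPM, while Bax, which opens mitochondria in apoptosis, stayed within 2-fold.

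Cell cycle genes had a median of 0.44, with 14 of 41 higher and 5 lower. On the far side the median was 0.44 too, with 11 higher and 4 lower. Inhibitors of cyclin-dependent kinases differed most. Cdkn1a (p21) went from 67 to 3498 counts with 151 away (48.0-fold, 37.7 to 62.0), and Cdkn1c (p57) from 5187 to 402 with 430 away. Ccnd2 went from 516 to 46 counts, Rrm2, needed for DNA synthesis, from 184 to 972.

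Glycolysis and hypoxia response genes were higher as a group. Of 37 kept, 28 were past 2-fold higher, or 75.7%, and 4 lower, with a median of 2.24. Away from the embryo 10 were higher and 9 lower, with a median of 0.35, against the same day 4 evening library. Slc16a3, which exports lactate, had 68, 48 and 43 counts at the earlier times, 65 away and 6225 around the embryo (133-fold, 98.6 to 184). Egln3, an oxygen sensor, went from 33 to 3182 counts with 68 away, and the glucose transporter Slc2a1 from 485 to 6454 with 1351 away. Ldha, which makes lactate, went from 1207 to 3702 CPM and stood at 602 away. Hif1a, the oxygen-regulated factor itself, went from 771 to 1403 CPM, within 2-fold. Aldoc and Pfkfb3 were lower, Aldoc at 92 against 800 counts.

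Genes of protein folding in the endoplasmic reticulum had no member lower past 2-fold and 19 of 29 higher (median 1.32). Trib3 and Chac1, both induced by this stress, went from 37 to 2537 and from 10 to 477 counts, with 660 and 101 away. Xbp1, a transcription factor of the unfolded protein response, went from 509 to 3886 CPM and 2856 away, and the chaperone Hspa5 from 8643 to 26510 counts. Of 30 cholesterol and fatty acid synthesis genes, 19 were higher past 2-fold and 2 lower (median 1.20). Sqle and Hsd17b7, of cholesterol synthesis, went from 87 to 796 and from 92 to 770 counts. Fasn and Acss2, of fatty acid synthesis, were the 2 lower genes, at 667 against 3131 and 140 against 746 counts.

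Interferon-stimulated genes were the group most consistently lower. Of 33 kept, 24 were lower past 2-fold, or 72.7%, and 1 higher, with a median of -2.20, and away from the embryo 18 were lower, with a median of -1.13. Ifit1, which binds foreign RNA, had 173, 347 and 395 CPM at the earlier times, 110 away from the embryo and 6.97 around it, 56.6-fold lower than on day 4 evening (47.3 to 68.4). Oasl2 went from 2302 to 64 counts with 596 away, the ubiquitin-like Isg15 from 1408 to 55 with 254 away, and Irf7, which drives interferon genes, from 2490 to 101 with 448 away. Each was lowest around the embryo, and members of the Ifit family can share reads. The exception was Gbp2, a guanylate-binding protein, which went from 622 to 1660 counts around the embryo and 2570 away. Leukocyte markers were lower in the same library, and their part in this was not tested.

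**Figure D4:**
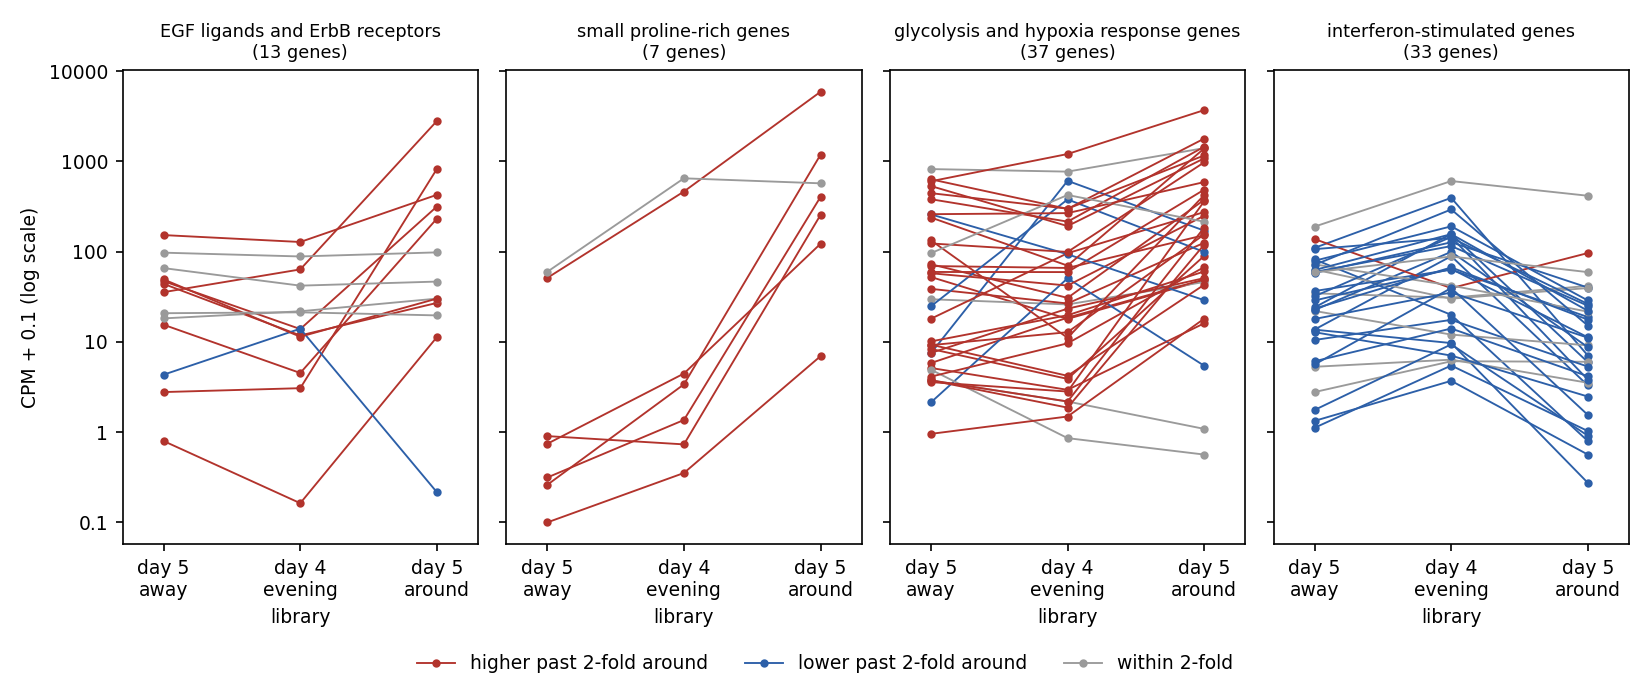
Each line is 1 kept gene of 4 groups, joining its CPM away from the embryo on day 5, on day 4 evening and around the embryo on day 5, on a log scale with a small constant added. Red lines are genes higher past 2-fold around the embryo and blue lines lower, and the glycolysis group is mostly red with 28 of 37 genes while the interferon group is mostly blue with 24 of 33.

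Acute phase and complement genes were higher in 12 of 23 cases and lower in 7 (median 1.01), and their median away from the embryo, 1.21, was no smaller. Of the 23, 2 were kept only through the library around the embryo. The outside filter passed 21 genes, 10 of them higher and 7 lower (median 0.93). Fga and Fgg, chains of fibrinogen, went from 9 to 3621 and from 12 to 4571 counts, with 490 and 925 away. Fga was 370-fold above day 4 evening (194 to 809). Lcn2, which withholds iron from microbes, went from 305 to 7123 counts and the complement protein C3 from 141 to 1116. Cd14, a receptor for bacterial lipopolysaccharide, went from 10014 to 938 and Cfb, of the alternative complement pathway, from 627 to 144.

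Of 24 genes that handle zinc, iron and copper, 9 were higher and 5 lower (median 0.31). On the far side 10 were higher and 5 lower, and the median, 0.66, was no smaller. Steap4, which reduces iron and copper at membranes, had 18, 34 and 71 counts at the earlier times, 435 away and 1932 around the embryo (25-fold, 19.7 to 32.1). Its relative Steap1 went from 21 to 539 counts and Tfrc, the transferrin receptor, from 556 to 4232. The zinc carriers Slc39a2 and Slc39a14 were lower, at 74 against 532 and 598 against 2669 counts.

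Since Stat3 acts downstream of Lif and binds palindromes of the form TTCCNGGAA, promoter windows of the named genes that were higher past 4-fold were searched for these letters. The motif reads the same on both strands. The windows run from 250 bases before to 50 after the annotated start in RefSeq sequence of GRCm38.p6. Fga (chr3:83025903-83026202, plus strand) and Steap4 (chr5:7960222-7960521, plus strand) held a match, whose first base lies 234 and 116 bases before the start. They are shown with the match in capitals.
Fga: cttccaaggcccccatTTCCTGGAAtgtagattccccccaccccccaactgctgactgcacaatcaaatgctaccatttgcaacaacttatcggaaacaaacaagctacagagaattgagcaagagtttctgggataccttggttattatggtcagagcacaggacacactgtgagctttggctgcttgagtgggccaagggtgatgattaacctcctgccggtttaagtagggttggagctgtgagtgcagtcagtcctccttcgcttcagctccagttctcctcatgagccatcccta
Steap4: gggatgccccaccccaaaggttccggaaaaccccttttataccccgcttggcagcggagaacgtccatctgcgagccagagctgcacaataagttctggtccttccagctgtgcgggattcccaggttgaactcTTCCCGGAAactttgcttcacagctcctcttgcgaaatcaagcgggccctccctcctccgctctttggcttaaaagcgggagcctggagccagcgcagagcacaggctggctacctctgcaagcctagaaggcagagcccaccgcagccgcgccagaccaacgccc
The match is TTCCTGGAA in Fga and TTCCCGGAA in Steap4. Among all kept genes with a window, 157 of 9580 (1.64%) held the motif, among those higher past 4-fold 13 of 818 (1.59%), and among those lower past 4-fold 15 of 811 (1.85%). A match is a description of the letters and not of binding.

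Chemokine and interleukin genes differed widely, 13 of 30 higher and 10 lower (median 0.43), but 3 were kept only through the library around the embryo. The outside filter passed 27 genes, 11 of them higher and 10 lower (median 0.43). On the far side, 11 of the 30 were higher and 6 lower, with a median of 0.71. Beside Il11, the interleukin 1 gene Il1a went from 41 to 6503 counts with 761 away (146-fold, 107 to 203) and its antagonist Il1rn from 1 to 466 with 26 away. Il17rb, a receptor for interleukin 25, went from 11350 to 125 counts with 600 away, and Csf3 from 288 to 22. Among angiogenic genes, 11 of 26 were higher and 9 lower (median 0.13). Vegfa, the main angiogenic factor, went from 1362 to 9345 counts with 2743 away, and its receptor Flt1, an endothelial and trophoblast gene, from 36 to 996 with 23 away. Pgf went from 656 to 78 counts with 1176 away.

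Of 30 AP-1 and immediate early genes, 16 were higher past 2-fold and 2 lower (median 1.10), but 2 were kept only through the library around the embryo. The outside filter passed 26 genes, 14 of them higher and 1 lower (median 1.10). Fosl1 went from 0 to 116 counts (at least 35.5-fold) with 8 away, Phlda1 from 72 to 2302 with 112 away, Egr2 from 28 to 562 with 2 away and Egr1 from 220 to 1895 with 112 away. Egr1 and Egr2 were thus highest around the embryo, and of the 2 day 5 libraries and that of day 4 evening, lowest away from it. On day 4 morning they were low too, at 103 and 0 counts. Nr4a2 was lower at both sides, at 119 and 59 against 608 counts.

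Retinoid genes were higher in 12 of 20 cases (3 lower, median 1.16). Aldh1a3, which makes retinoic acid, had 1199, 0 and 16 counts at the 3 earlier times, 8 away and 3660 around the embryo (210-fold above day 4 evening, 129 to 368), and Cyp26a1 was given above, so a gene of synthesis and a gene of breakdown were higher together. Aldh1a1, another enzyme of synthesis, went from 103 to 11. Steroid and drug-metabolizing enzymes were mostly lower, 15 of 25 against 8 higher (median -1.36). Ces1d, an esterase, went from 592 to 2 counts. Cyp11a1, which opens steroid synthesis from cholesterol, went from 0 to 635 counts (at least 194-fold) with 0 in the other 3 libraries, and Hsd17b2, which inactivates estradiol, from 18 to 4486 with 85 away (229-fold, 145 to 387).

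Glutathione and antioxidant genes were lower in 15 of 37 cases and higher in 6 (median -0.06). Gstm1 and Gstm7 went from 36516 to 394 and from 1807 to 9 counts, with reads possibly shared among the Gstm genes. In contrast, the cystine importer Slc7a11 went from 217 to 11309 counts with 93 away (47.9-fold, 41.9 to 55.0), and Hmox1, which degrades heme, from 479 to 10967 with 749 away. Ion and water transport genes had 13 of 34 higher and 11 lower (median 0.15), but 2 were kept only through the library around the embryo. The outside filter passed 32 genes, 12 of them higher and 10 lower (median 0.15). Slc26a4, an anion exchanger, and the water channel Aqp3 went from 0 to 1116 and from 3 to 1081 counts, with 38 and 6 away, while Fxyd4, a regulator of the sodium pump, went from 10203 to 138 with 169 away.

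Housekeeping genes were seldom higher. Of 83 cytosolic ribosomal protein genes, 2 were higher past 2-fold and 11 lower (median -0.36), and of 72 oxidative phosphorylation genes, 1 and 18 (median -0.59). The lower share of the latter, 25%, stands beside 20.7% of all genes. Ribosomal protein genes have many processed copies that can share their reads.

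**Figure D5:**
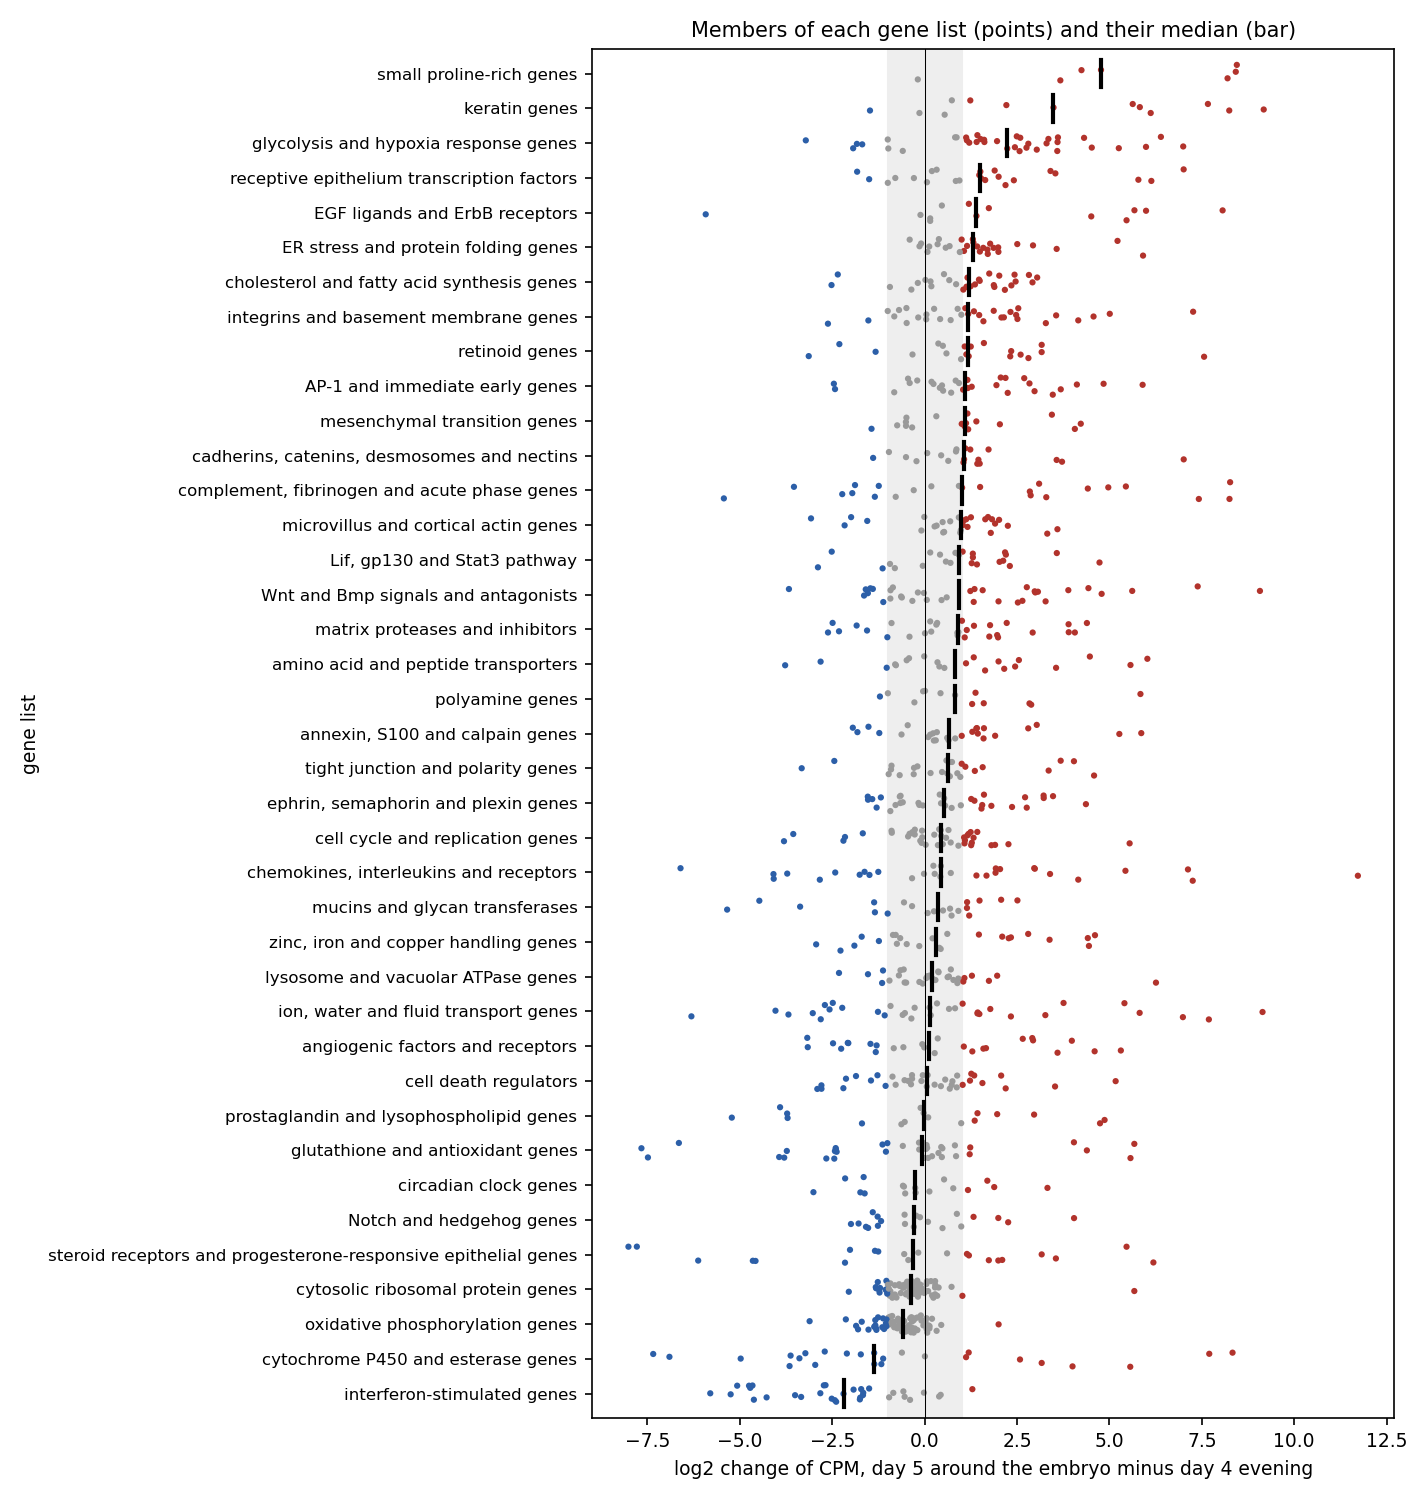
Each row is a gene list with at least 5 kept members, cell type and embryo markers left out, each point a kept member, and the horizontal axis the log2 difference of CPM between day 5 around the embryo and day 4 evening, with the median as a black bar and the range within 2-fold shaded. Lists are ordered by their median, from 4.77 for small proline-rich genes to -2.20 for interferon-stimulated genes.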

How the data were processed

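RNA was prepared with a NucleoSpin kit and SMART-seq v.4 and sequenced as paired ends by the authors, who aligned reads to GRCm38/mm10 with HISAT2 and counted them per gene with featureCounts of Subread 2.0.0. The authors deposited raw read counts for 23420 genes in 5 libraries, with gene coordinates and lengths. How reads from copies or either strand were assigned is not given in the sources used here. SMART-seq amplifies whole transcripts without molecular identifiers, so a count is not an independent molecule.

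Counts were scaled to CPM with TMM factors over the 5 libraries (edgeR 4.0.16 in R 4.3.3), 2 was the prior count of log2 values, and the filter kept a mean CPM of 1 or more. With 1 library per side, genes were called by size alone, past 2-fold or 4-fold. Count ratios carry exact Clopper-Pearson 95% intervals (scipy 1.17.1), and a gene at 0 was set to a floor of 3 counts in that library. RPKM used the deposited lengths. The scripts were tested on simulated data. Named genes were the 10 largest differences in each direction where the mean CPM of the 2 libraries reached 10, preset anchors of each list, and the 2 largest members past 2-fold in each direction of each list with at least 10 CPM in 1 of the libraries. Genes named beside these were chosen after their values were seen. The comparison, the gene lists and the rules were chosen with earlier results of these data known, and some genes stand on more than 1 list. The 27 genes whose names had been turned into dates were kept as they stand. A few list members are not reported here. Alternatives were library totals, DESeq2 1.42.0 size factors, other filters and another prior count.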

Additional observations from a re-analysis of the deposited data

Results flagged for a closer look

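Among the 282 named genes, 18 differed from day 4 evening by more than 2-fold in opposite directions at the 2 sides of the uterus on day 5. The named genes were partly picked for large differences, and the same share over all kept genes is not given. Both comparisons share the day 4 evening library, each rests on 1 library per side, and the difference between the sides was not tested. In what follows the first value is the log2 difference around the embryo and the second that away from it. Higher around and lower away were Aldh1a3 (7.56 and -1.05), Bhlhe40 (1.88 and -3.59), Dppa5a (7.35 and -2.57), Egr1 (2.97 and -1.20), Egr2 (4.12 and -3.08), Elf5 (1.89 and -2.94), Ldha (1.62 and -1.0028), Muc1 (1.14 and -1.15), Ptgs2 (2.96 and -4.05), S100a8 (5.27 and -1.72), Slc7a11 (5.57 and -1.44), Sprr1a (4.77 and -2.56), Sprr2b (8.45 and -3.62), Sprr2f (3.67 and -3.18) and Timp1 (1.99 and -1.26). They include the pluripotency gene Dppa5a and the trophectoderm gene Elf5, next to prostaglandin, cornified envelope and immediate early genes. Some of the lower values away rest on few counts. On day 4 evening and away, Dppa5a had 9 and 0 counts, Aldh1a3 16 and 8, S100a8 21 and 6 and Egr2 28 and 2. Lower around and higher away were Cldn8 (-2.44 and 2.02), Csf1 (-1.25 and 2.07) and Porcn (-1.54 and 1.03), which are claudin 8, the macrophage growth factor and the Wnt acylating enzyme.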

How the results depend on the processing

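The counts of genes past a fold depended on the filter. Without a filter on low counts, 4029 genes were higher past 2-fold, against 2465, and 1824 past 4-fold, against 1143. With a mean of at least 5 CPM, 745 genes were higher past 4-fold and 731 lower, against 1143 and 1122. The median of the cytosolic ribosomal protein genes, -0.36, became -0.45 with library totals and -0.51 with totals that leave out Rn45s and Lars2, and that of the oxidative phosphorylation genes, -0.59, became -0.74 with the latter. These scalings also moved the median of all kept genes, from -0.02 to -0.11 and -0.17, so differences below these sizes have no firm sign. No named gene past 2-fold changed its direction under any scaling or prior count, and of 282 named genes 6, 1, 1 and 10 crossed the 2-fold line with library totals, DESeq2 size factors, TMM over the 2 libraries and totals without Rn45s and Lars2. Some list medians depended on the filter as well. With a mean of at least 5 CPM that of the primitive endoderm markers turned from 0.50 to -1.17, and those of the angiogenic, acute phase and complement, small proline-rich and endothelium lists went from 0.13, 1.01, 4.77 and 1.19 to 1.29, 0.32, 6.48 and 2.19. A filter on the 3 libraries outside the comparison, added after seeing the data, left 2262 genes higher past 2-fold and 2730 lower, and moved the medians of the keratin, trophectoderm, decidual response and primitive endoderm lists from 3.49, 3.75, 2.24 and 0.50 to 0.99, 2.47, 0.84 and -0.42. With a prior count of 0.5 the gland marker median went from 4.40 to 6.34. That list had 4 kept genes, 3 of them kept only through the library around the embryo, so its median carries no weight. Beside the primitive endoderm list, at most 3 of 49 lists changed the sign of their median under any alternative, all with medians between -0.06 and 0.15. No paired analysis was possible because each condition had 1 library, and for the same reason none could be left out.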

Other observations

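Further gene groups are described here, beside shares over all kept genes of 19.1% higher past 2-fold and 20.7% lower. Lysosomal genes stood at 19.4% and 12.9%, circadian clock genes at 23.5% and 29.4%, and Notch and hedgehog genes at 19% and 38.1%. In these groups the share of higher genes was thus close to that of all genes. Of 22 amino acid and peptide transporters, 11 were higher past 2-fold and 3 lower (median log2 difference 0.83), with Slc7a8 at 58 and 1441 counts on day 4 evening and around the embryo and Slc6a14, an importer of neutral and basic amino acids, at 2071 and 12314. Slc15a2, a peptide importer, went from 1154 to 90. Among polyamine genes, 6 of 13 were higher and 1 lower (median 0.82), with Odc1, the rate-limiting enzyme, at 529 and 4126 counts and 807 away, and Arg1, which feeds it ornithine, at 28 and 1856 and 48 away. S100a8 and S100a14 were at 21 and 955 and at 7 and 556 counts, while Anxa1 went from 14971 to 4236. Atp6v0d2, a subunit of the proton pump, went from 312 to 26157 counts around the embryo and 36930 away (77.0-fold around, 68.9 to 86.4), the largest difference among 31 lysosomal genes, of which 6 were higher and 4 lower. Among 33 ephrin, semaphorin and plexin genes, 13 were higher and 5 lower (median 0.53). On the far side 11 were higher and 4 lower (median 0.51).

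Notch and hedgehog genes were lower in 8 of 21 cases and higher in 4 (median -0.29). Hey1, a Notch target, went from 151 to 2739 counts with 864 away, whereas Notch1 went from 1041 to 427. Circadian clock genes had 4 of 17 higher and 5 lower (median -0.26). The output gene Dbp went from 279 to 36 counts with 250 away, and Bhlhe40, a repressor, from 409 to 1647 with 38 away. The libraries were taken at different times of day, evening and morning, so time of day and pregnancy stage cannot be told apart here.

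Of the genes higher past 4-fold, 28 had counts around the embryo and 0 in the other 4 libraries. They were looked at after their values were seen. The largest were BC053393 (4217 counts), Crct1 (1811), Gm1045 (1062), Ctsll3 (850) and Lce3a (839). Known genes of early embryos and trophoblast stood beside genes of stratified epithelium among the 28. The former included Trap1a (409 counts), Zfp42 (246), Tex19.1 (245), Rhox5 (119) and Pramel7 (108), and the latter Rptn (156) and Krt6b (96).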
